A study of Mus musculus with 9 samples.

Results

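Group 2 innate lymphoid cells (ILC2s) of the brain meninges, the membranes around the brain, were compared between mice with a spinal cord injury and uninjured mice. The libraries are the 3 from injured and the 3 from uninjured brain meninges, 6 of the 9 libraries of the series, chosen by the tissue and injury in their titles. The other 3 libraries, from uninjured lung, enter the filter on low counts, the scaling and the estimate of spread and are not described. All mice were wild-type C57BL/6 mice aged 10 weeks. The injured group had received a spinal cord contusion of 80 kdyn, and its brain meninges were taken 24 h (1 day) later. No group was labelled as sham-operated, so the contusion and the surgery around it cannot be told apart. Per the labels, cells were sorted as live (DAPI-negative) CD45+ cells without lineage markers that carried ST2, the IL-33 receptor, and Thy1. Per the labels 5 mice were pooled per group. Whether the 3 libraries of a group are separate pools is not said there, and the p-values therefore reflect only how these libraries vary, which may be technical variation.

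ILC2s are tissue-resident lymphocytes without rearranged antigen receptors. They depend on the transcription factor GATA3, respond to alarmins such as IL-33 that damaged tissue releases, and secrete type 2 cytokines such as IL-5 and IL-13. In the meninges they lie along the dural sinuses. Neuropeptides and lipid mediators such as prostaglandins are also known to act on them.

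Library totals ranged from 13407277 to 18253462 counts, so that a count of 0 allows up to 3 counts, or 0.163 to 0.239 CPM. CPM are counts relative to the library total after scaling by the trimmed mean of M values. The RNA was amplified, so intervals and limits from counts cover counting error only. Injured library 2 stood apart: it had the fewest genes with a count, 13465 against up to 18452, and its Spearman correlations across genes with the rest of its group were 0.795 and 0.799, against 0.854 between injured libraries 1 and 3. The sort genes were present in every library, and 1 of them, Thy1, was lower after injury. Thy1 fell from 279, 167 and 229 CPM to 92.5, 60.1 and 51.4 CPM (log2 fold change -1.73 ± 0.29, adjusted p = 0.022), a call lost without uninjured library 1 (0.13) or 3 (0.067) and without injured library 2 (0.064) or 3 (0.089), and in the fit on the 6 meningeal libraries (0.1). Il1rl1, the gene of ST2, had 1864, 2163 and 2537 CPM in uninjured libraries 1, 2 and 3 and 1929, 2516 and 2694 CPM in injured libraries 1, 2 and 3. Ptprc, the gene of CD45, ranged from 1301 to 2069 CPM over the 6 libraries, and Gata3, the ILC2 transcription factor, from 495 to 646 CPM. Below, the values of a gene are given in the order of libraries 1, 2 and 3 of each group.

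One day after the contusion, 29 of 15117 genes tested had changed (0.192%) in edgeR's quasi-likelihood test at an adjusted p under 0.05. Of these, 20 rose (0.132%) and 9 fell (0.0595%). An unadjusted p under 0.05 was found for 1352 genes (8.94%). The genes that rose include ones for cell polarity and actin assembly (Pard3, Daam1), a surface glycoprotein (Emb), a protease inhibitor (Ctla2a), a chromatin subunit (Aebp2), a monoamine carrier (Slc18a2) and an endosomal sorting protein (Snx13). Among the genes that fell was Hpgd, an enzyme that breaks down prostaglandins. The 3 injured and 3 uninjured values did not overlap for any of the 29 genes, nor for 1836 genes in all (12.1%), of which 809 were higher after injury (5.35%) and 1027 lower (6.79%). Of the 29, 19 had a mean of at least 100 CPM, where the median standard error of a log2 fold change was 0.27, against 1.76 below 10 CPM. Without injured library 2 the number called was 18, of which 15 were among the 29, and without uninjured library 2 it was 19, of which 14 were among them. In bulk RNA, fewer cells of a type and less RNA per cell cannot be told apart.

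**Figure D1:**
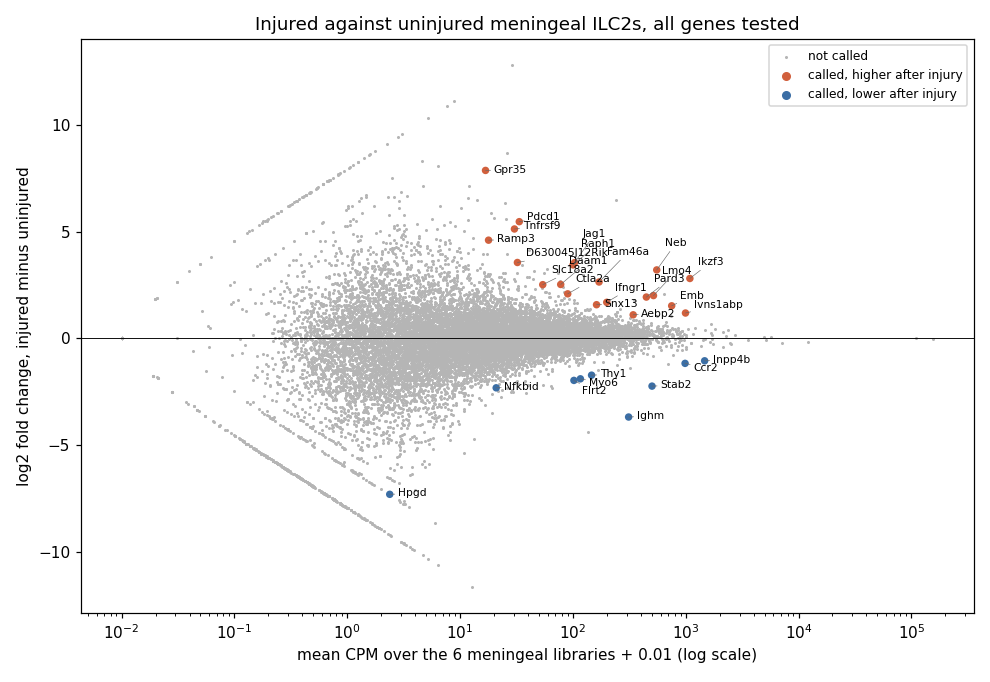
Log2 fold change of every gene tested (injured minus uninjured meninges) against its mean CPM over the 6 meningeal libraries plus 0.01, on a log axis. Orange points are the 20 genes called higher, blue points the 9 called lower and grey points the rest; 1 of the called genes, Hpgd, lies below 10 CPM, where folds spread widely, and 19 lie above 100 CPM.

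Among genes of cell shape and polarity, Pard3 rose. It encodes a scaffold of the polarity complex that it forms with Par6 and atypical protein kinase C. Pard3 had 181, 141 and 236 CPM without injury and 530.2, 824 and 777 CPM after it. The lowest injured library was above the highest uninjured one by more than the range of the uninjured group. The log2 fold change was 1.93 ± 0.24 (SE; edgeR adjusted p = 0.0017), and the gene was called in all 18 alternative analyses, including those that left out each library in turn. Of 10 tested genes of the polarity complexes, 1 was called, and 7 had a negative log2 fold change. This family and those below were assembled around a called gene, so at least 1 call in each was fixed in advance. Among all 15117 genes tested, 0.192% were called and 7590 had a negative log2 fold change. The paralog Pard3b had 51.6, 44.3 and 136 CPM without injury and 30.3, 113 and 34.9 CPM after it, with overlapping groups (adjusted p = 0.89), and Prkci, an atypical kinase partner, had 33.0 to 44.7 and 40.1 to 94.0 CPM (adjusted p = 0.63).

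Daam1, a formin that assembles actin filaments and acts in Wnt planar polarity signalling, also rose. It had 34.2, 16.3 and 18.7 CPM without injury and 117, 183 and 99.3 CPM after it. All 3 injured libraries were above all uninjured ones, with library 2 the highest. On the log2 scale the difference was 2.52 ± 0.46 (adjusted p = 0.035). The call was lost without uninjured library 2 (adjusted p = 0.17) or 3 (0.14) and without injured library 1 (0.058) or 2 (0.083). Of 13 tested formins, 1 was called. Diap2, another formin, had 80.3 to 93.2 CPM without injury and 122 to 173 CPM after it and did not pass (adjusted p = 0.44).

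Emb encodes embigin, a glycoprotein of the immunoglobulin superfamily that accompanies monocarboxylate carriers to the cell surface. It rose from 430.2, 406 and 327 CPM to 857, 1287 and 1201 CPM, a log2 fold change of 1.52 ± 0.20 (adjusted p = 0.0035). The groups were separate, and the gene was called in all 18 alternatives. The related chaperone basigin, Bsg, had 17.8 to 28.7 CPM without injury and 17.2 to 57.1 CPM after it (adjusted p = 0.84). Of the 6 tested genes of embigin, basigin, neuroplastin and the carriers Slc16a1, Slc16a3 and Slc16a7, 1 was called.

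Ctla2a encodes a small inhibitor of cathepsin-like cysteine proteases, known from activated T cells. It had 39.0, 29.7 and 34.3 CPM without injury and 121, 185 and 131 CPM after it. The uninjured libraries lay close together and every injured library was above them. This gave a log2 fold change of 2.09 ± 0.31 (adjusted p = 0.008). It was called in 16 of 18 alternatives and lost without uninjured library 2 (adjusted p = 0.051) and in the fit on the 6 meningeal libraries alone (0.054). The near-identical copy Ctla2b had 10.8, 22.0 and 5.64 against 18.2, 22.4 and 43.7 CPM (adjusted p = 0.67). Reads could be split between the 2 copies in the authors' counting, so each value is uncertain.

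Slc18a2 encodes the vesicular monoamine transporter VMAT2, which loads serotonin, histamine and catecholamines into vesicles. It had 16.2, 24.5 and 7.66 CPM without injury and 83.3, 112 and 80.7 CPM after it. The lowest injured library was more than 3 times the highest uninjured one. The log2 fold change was 2.52 ± 0.47 (adjusted p = 0.04), and the call held without uninjured library 2 or lung library 1 and was lost without any other single library (adjusted p from 0.061 to 0.17). The enzymes that make monoamines were scarce. Tph1, of serotonin synthesis, had 3.16, 0.129 and 18.4 against 5.26, 0.318 and 2.13 CPM. Hdc, of histamine synthesis, had 0.707, 0 and 0 against 11.7, 0 and 2.51 CPM and did not pass (adjusted p = 0.48). Of 7 tested monoamine genes, Slc18a2 was the 1 called. Mast cells and basophils also carry Slc18a2 and Hdc. The summed level of 10 mast cell and basophil markers was 236 to 308 CPM without injury and 395 to 561 CPM after it. Most of it was Kit, 1 of 3 members of 5 tested with a positive log2 fold change, with 209, 306 and 230.5 against 381, 405 and 549.7 CPM (adjusted p = 0.23; called by DESeq2), while the mast cell protease Mcpt4 was at 0 in all 6 libraries. Cpa3, of the same cells, was lower without overlap, with 10.9, 2.06 and 1.14 against 0.0597, 0.318 and 0.752 CPM (adjusted p = 0.49), and Tpsb2, Cma1 and Fcer1a were at 0 in all injured libraries. Without injury Tpsb2 had 0.134 CPM in library 3, Cma1 0.762 and Fcer1a 0.109 CPM in library 1, and each was at 0 otherwise. The part of such cells in the level of Slc18a2 was not tested.

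Slc18a2, Ctla2a and Ivns1abp, a Kelch-repeat gene described after them, shared a short promoter sequence. It is the core TGACGT of the cAMP response element (CRE). The 300 bases from 250 before to 50 after a start site were taken from RefSeq (build GRCm38.p6), in the gene's direction, at the first start site listed for each. Capitals mark every match, on either strand and with overlapping matches joined, to this core or to a motif of AP-1, NFAT, GATA or ETS factors, whose letters follow below. A gene can hold several motifs, and each is counted.
Slc18a2, chr19:59260628-59260927, plus strand: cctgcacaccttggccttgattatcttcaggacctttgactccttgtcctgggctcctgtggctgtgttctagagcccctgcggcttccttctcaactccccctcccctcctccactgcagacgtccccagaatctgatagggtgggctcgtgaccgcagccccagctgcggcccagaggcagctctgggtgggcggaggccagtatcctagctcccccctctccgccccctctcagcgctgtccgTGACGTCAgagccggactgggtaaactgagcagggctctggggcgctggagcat
Ctla2a, chr13:60936576-60936875, minus strand: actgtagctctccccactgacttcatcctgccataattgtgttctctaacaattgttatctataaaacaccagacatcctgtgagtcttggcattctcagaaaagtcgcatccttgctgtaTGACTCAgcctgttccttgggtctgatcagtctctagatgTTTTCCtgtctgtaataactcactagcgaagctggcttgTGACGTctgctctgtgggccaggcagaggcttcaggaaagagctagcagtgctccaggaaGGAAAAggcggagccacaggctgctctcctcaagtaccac
Ivns1abp, chr1:151344236-151344535, plus strand: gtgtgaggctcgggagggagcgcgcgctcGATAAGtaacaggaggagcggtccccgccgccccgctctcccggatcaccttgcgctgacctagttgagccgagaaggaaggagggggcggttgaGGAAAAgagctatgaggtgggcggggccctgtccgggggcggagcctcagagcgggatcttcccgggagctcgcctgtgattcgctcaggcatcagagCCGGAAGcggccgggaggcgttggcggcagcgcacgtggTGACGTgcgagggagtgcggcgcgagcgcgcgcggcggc
Of the 20 genes that rose, 18 had a promoter in the table, and 5 of them (27.8%) held a CRE core at 1 or more of their start sites, namely these 3, Daam1 and Pard3. Among all 9714 tested genes with a promoter, 13.4% held one. The AP-1 motif, searched as TGANTCA, was matched in 3 of the 18 (16.7%, against 6.15% of all), among them Ctla2a, whose match lies upstream of its CRE core in the sequence shown. For the other motifs the shares lay closer to those of all genes: 27.8% against 24.7% for NFAT, searched as GGAAAA, 11.1% against 6.35% for GATA, searched as GATAAG, and 22.2% against 19.8% for ETS, searched as CCGGAAG. Of the 9 genes that fell, 7 had a promoter, and 2 of these (28.6%) held a CRE core, a share like that of the genes that rose. NFAT was matched in 4 of the 7 (57.1%), and AP-1, GATA and ETS in 0. A match is a run of letters and was not tested for binding.

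Ivns1abp, a Kelch-repeat adaptor first known for binding an influenza protein, rose from 538, 537 and 749 CPM to 1100.0, 1418 and 1634 CPM. The groups were separate and the log2 fold change was 1.19 ± 0.20 (adjusted p = 0.022). Per kilobase of exon it had the highest mean level of the called genes described so far, 183 CPM per kilobase over the 6 libraries, against 109 for Emb and 10.3 for Slc18a2. The call was lost without uninjured library 1 (adjusted p = 0.12) or 2 (0.12) and without injured library 2 (0.052) or 3 (0.08). Of 12 tested Kelch-repeat adaptors, 1 was called. Kbtbd11 had 393 to 451 CPM without injury and 219.8 to 291 CPM after it (adjusted p = 0.46), separate groups on the lower side.

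Aebp2 encodes an accessory subunit of Polycomb repressive complex 2, which methylates histone H3 at silenced genes. It had 227, 219 and 206 CPM without injury and 474, 489 and 438 CPM after it. Both groups were tight. Its log2 fold change of 1.10 ± 0.19 (adjusted p = 0.024) was the smallest among the genes that rose. It missed the threshold without uninjured library 1, 2 or 3 (adjusted p from 0.11 to 0.12) and without injured library 2 (0.064). Of 11 tested genes of the complex, 1 was called. Among the core subunits, Ezh2, the methyltransferase, had 45.9 to 84.8 against 39.7 to 64.8 CPM (log2 fold change -0.15 ± 0.41), and Suz12 had 144 to 150.2 against 112 to 226 CPM (0.22 ± 0.29).

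Fam46a, of a family of nucleotidyltransferases that extend RNA tails, rose from 50.01, 33.7 and 57.7 CPM to 232, 355 and 296 CPM. The lowest injured library was about 4 times the highest uninjured one. The log2 fold change was 2.64 ± 0.45 (adjusted p = 0.022), and the fit on the 6 meningeal libraries alone also called it (adjusted p = 0.0056). It was lost without any 1 uninjured library (adjusted p from 0.058 to 0.11) and without injured library 2 (0.064) or 3 (0.055). The family member Fam46c had 11.1 to 28.0 CPM without injury and 0 to 20.4 CPM after it (adjusted p = 0.91).

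Snx13, a sorting nexin of endosomes that also carries a domain regulating G-protein signals, rose from 76.0, 96.3 and 72.0 CPM to 179, 262 and 287 CPM. The log2 fold change was 1.58 ± 0.29 (adjusted p = 0.035). It missed the threshold without uninjured library 1, 2 or 3, injured library 2 or 3, or lung library 2 (adjusted p from 0.058 to 0.17). Of 21 tested sorting nexins, 1 was called, and 12 had a negative log2 fold change. Snx3 had 29.9 to 42.2 CPM without injury and 7.90 to 14.8 CPM after it (adjusted p = 0.48). D630045J12Rik rose from 4.63, 3.55 and 6.99 CPM to 80.1, 75.5 and 22.6 CPM, with injured library 3 the lowest of its group. Its log2 fold change was 3.55 ± 0.66 (adjusted p = 0.04), and the call was kept in 2 of the 9 analyses without 1 library, those without injured library 3 and without lung library 2.

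Hpgd encodes the dehydrogenase that inactivates prostaglandin E2. It fell from 11.4, 0.387 and 2.35 CPM to 0.0597, 0 and 0 CPM. The uninjured group rested on library 1, and the injured group held 1 count in all, against 251. The ratio of summed counts, scaled by library size, was 233-fold, with an exact 95% interval from 41.4 to 9240 that covers counting error only. The edgeR adjusted p was 0.043. It was lost without uninjured library 1 (0.11) or 3 (0.077), without injured library 1 (0.19), 2 (0.46) or 3 (0.22) and without lung library 1 (0.054). In the fit on the 6 libraries the filter on low counts left the gene out, so it was tested only with lung libraries included. Of 7 tested prostaglandin genes, 1 was called. Ptgs2, the inducible cyclooxygenase, had 2.94, 0.129 and 1.21 against 7.17, 44.9 and 0.501 CPM (adjusted p = 0.44), so its highest value was in injured library 2 alone. Hpgds, of prostaglandin D2 synthesis, had 28.4, 31.2 and 36.9 against 20.8, 27.6 and 77.8 CPM. The summed level of markers of fibroblasts and meningeal stroma was 14.8 to 84.0 CPM without injury and 7.77 to 34.4 CPM after it, 3 of 8 tested were lower without overlap, edgeR called 0 (4 at an unadjusted p under 0.05) and DESeq2 called 2, Pdgfra and Pdgfrb. The defining markers Pdgfra, Lum and Crabp2 were at 0 in all injured libraries. The part of stromal RNA in the level of Hpgd was not tested.

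**Figure D2:**
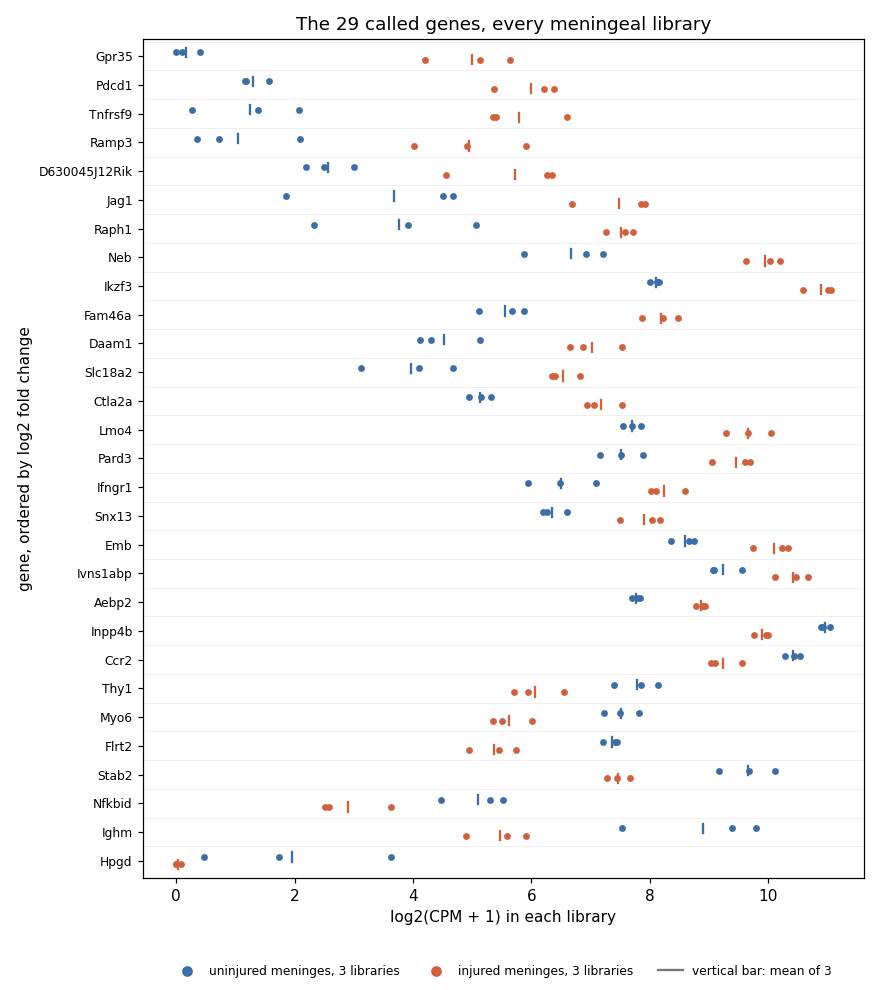
Level of the 29 called genes as log2(CPM + 1) in each of the 3 uninjured (blue) and 3 injured (orange) meningeal libraries, with a vertical bar at the mean of each group and genes ordered by log2 fold change. The 2 groups are separate in every row; Aebp2 and Inpp4b have tight groups, while Hpgd lies near 0 in the injured libraries.

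The per-library values of the other called genes differed in how closely their groups kept together. Ikzf3, the lymphoid transcription factor Aiolos, had 278, 255 and 285 CPM without injury and 1527, 2067 and 2125 CPM after it. Lmo4, a LIM-only transcriptional adaptor, rose from 205, 185 and 230.2 CPM to 623, 1058 and 807 CPM (log2 fold change 2.00 ± 0.24, adjusted p = 0.0016). Inpp4b, a phosphatase of phosphoinositide signalling, fell from 1905, 1949 and 2104 CPM to 859.6, 1017 and 995 CPM. These groups were far apart compared with their spread. Jag1, a Notch ligand, was less even, with 21.8, 24.5 and 2.62 CPM against 101, 229 and 241 CPM. Tnfrsf9, the costimulatory receptor 4-1BB, had 3.21, 1.61 and 0.202 CPM against 96.2, 39.7 and 41.1 CPM, with injured library 1 the highest. Of receptor genes, Ifngr1, of the interferon gamma receptor, rose from 88.7, 60.3 and 135 CPM to 258, 384 and 273 CPM, and Ramp3, a partner of peptide receptors, from 3.27, 0.645 and 0.269 CPM to 29.2, 58.7 and 15.2 CPM. Gpr35, a G-protein-coupled receptor, rose from 0.327, 0.0645 and 0 CPM to 49.0, 34.1 and 17.4 CPM, and the uninjured values rested on 6, 1 and 0 counts. Raph1, an actin regulator of the lamellipodin type, rose from 32.6, 14.003 and 4.03 CPM to 189.6, 152 and 209 CPM. In these genes the injured libraries lay above every uninjured one. Ccr2, a chemokine receptor, fell from 1379.8, 1245 and 1480.3 CPM to 524, 751 and 546 CPM, and Nfkbid, a regulator of NF-kB, from 21.3, 38.5 and 44.7 CPM to 4.72, 11.3 and 4.95 CPM. Of the 29 calls, 9 held in every analysis without 1 library: Ikzf3, Emb, Pard3, Pdcd1, Neb, Lmo4, Stab2, Inpp4b and Flrt2. In the fit on the 6 meningeal libraries 12 of 13318 genes were called (0.0901%), 11 of them among the 29. The other was Calca, the gene of calcitonin gene-related peptide, with 2.99, 0.581 and 12.4 against 419.5, 374 and 625 CPM (adjusted p = 0.011 in that fit and 0.085 with all 9 libraries). DESeq2 called 253 of 13888 genes (1.82%), the 29 among them.

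Ighm fell from 667, 184 and 886 CPM to 47.1, 59.1 and 28.6 CPM. Igkc, an antibody light chain gene, had 422, 13.03 and 345 against 19.0, 14.9 and 3.63 CPM and overlapped (edgeR adjusted p = 0.45; called by DESeq2). The summed level of 12 B cell and plasma cell markers was 228 to 1297 CPM without injury and 36.7 to 152 CPM after it, Ighm included. Of the 12, 8 had a negative and 4 a positive log2 fold change, edgeR called 1, Ighm, and 3 were lower without overlap. T cell markers summed to 104 to 190 CPM without injury and 65.9 to 168 CPM after it, and those of monocytes and macrophages to 48.7 to 115 and 67.9 to 177 CPM. Cd68, of macrophages, had 1.25, 1.16 and 1.14 against 5.56, 30.4 and 4.70 CPM, with its highest value in injured library 2 (called by DESeq2). Siglecf, of eosinophils, and Gp9, of platelets, were at 0 in all 6 libraries. The part of RNA from these cells in the other results was not tested. ILC2 markers summed to 6810 to 7195 CPM without injury and 8000 to 10223 CPM after it, and 0 of 14 tested were called (edgeR; 5 at an unadjusted p under 0.05). DESeq2 called 2 of these, Calca and Rora, both higher. By log2 fold change 9 members were positive, and 5 were negative, namely Gata3, Areg, Il13, Il17rb and Arg1. Among the positive ones, Il7r had 1531, 1286 and 1084 against 1671, 2218 and 2368 CPM. Rora had 478, 474 and 507 against 758, 1001 and 1240 CPM. On the other side, Il17rb had 242, 462 and 486 against 258, 194 and 313 CPM. The sum is thus not a shared rise of its members.

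Genes just short of the threshold whose groups were also separate included Plaur, Tnfaip3, Rora and Il18r1 on the higher side. Atp2b4 and Camk4, of calcium signalling, were also among the 12 with the smallest p. Crem, of cAMP signalling, and Hdac4 ranked below the 12 and were taken from the function lists. The groups were separate for 16.1% of cAMP and 21.9% of calcium genes, against 12.1% of all genes tested and 18.1% of those of at least 100 CPM. Atp2b4, a plasma membrane calcium pump, had 24.7, 20.6 and 23.0 CPM without injury and 65.1, 136 and 96.6 CPM after it (log2 fold change 2.12 ± 0.41, adjusted p = 0.055). Camk4, a calcium/calmodulin-dependent kinase, had 182, 136 and 137 against 318, 356 and 305 CPM (1.11 ± 0.23, adjusted p = 0.075). Crem, a repressor and activator at CRE sites, had 12.5, 26.4 and 51.4 against 141, 94.6 and 172 CPM (2.17 ± 0.47, adjusted p = 0.087). None of these passed. Hdac4, a class IIa histone deacetylase that Camk-family kinases phosphorylate, had 74.6, 78.5 and 82.0 against 149, 266 and 181 CPM (1.34 ± 0.28, adjusted p = 0.085). Ppp2r3a, a regulatory subunit of protein phosphatase 2A, had 48.0, 20.8 and 38.4 against 121, 134 and 137 CPM (adjusted p = 0.085). Dkk3, a secreted Dickkopf-family protein, had 5.39, 11.5 and 1.07 against 54.1, 43.6 and 96.3 CPM (adjusted p = 0.056). Igsf5, a junctional adhesion protein, had 21.8, 33.2 and 28.4 against 76.9, 91.0 and 96.2 CPM (adjusted p = 0.064). In each of these genes the lowest injured library was above the highest uninjured one.

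On the lower side, Ikzf2, which encodes the Ikaros-family factor Helios, had 463, 387 and 550.1 CPM without injury and 158, 82.6 and 297 CPM after it (log2 fold change -1.38 ± 0.34, adjusted p = 0.18). Its family member Ikzf3 is among the genes that rose. Pcsk1, a convertase that cuts hormone and neuropeptide precursors, had 58.4, 48.5 and 101 against 10.2, 28.2 and 23.0 CPM (adjusted p = 0.19). Bmp7, a secreted bone morphogenetic protein, had 65.0, 103 and 87.0 against 33.9, 34.6 and 26.6 CPM (adjusted p = 0.19). These values did not pass the test, although the groups were separate. Mctp1, a membrane protein with calcium-binding C2 domains, had 28.5, 49.7 and 43.3 against 9.50, 2.55 and 6.08 CPM (adjusted p = 0.092). Plcl2, a phospholipase C-like protein without catalytic activity, had 40.4, 48.5 and 31.0 against 8.18, 9.62 and 4.64 CPM (edgeR adjusted p = 0.13; called by DESeq2). Mdfic, a transcriptional regulator, had 889, 1011 and 1017 against 479, 548 and 678 CPM (adjusted p = 0.2).

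**Figure D3:**
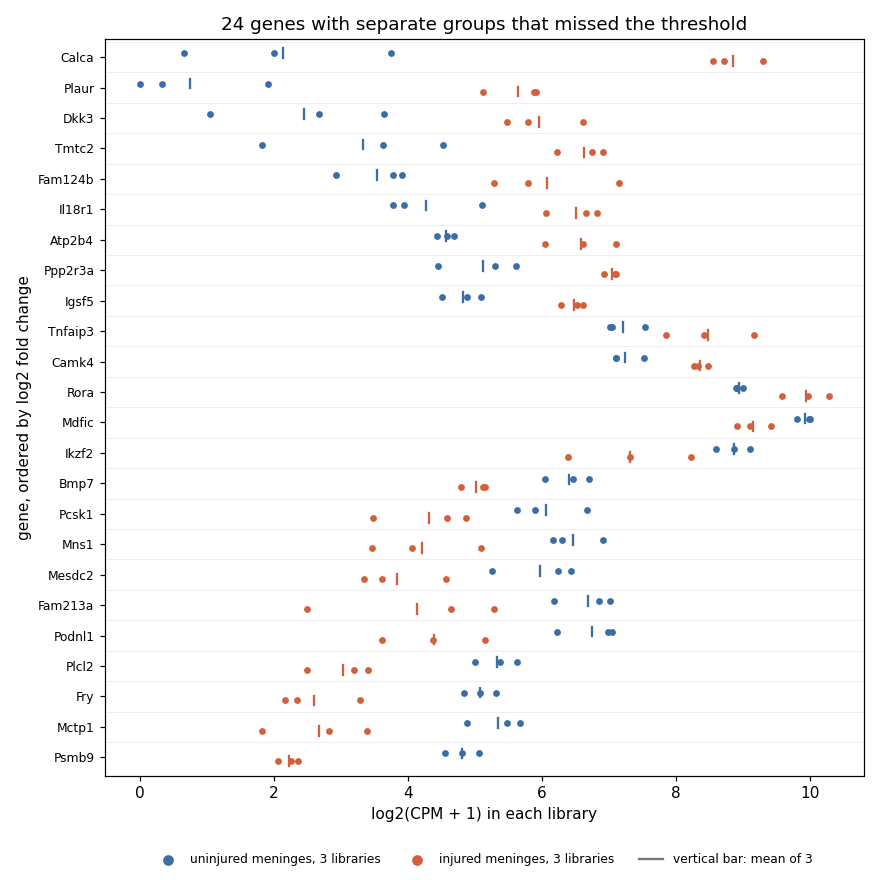
Level of 24 genes that did not pass the threshold although their groups did not overlap, as log2(CPM + 1) in each of the 3 uninjured (blue) and 3 injured (orange) libraries, with a bar at each group mean. They are the 12 with the smallest unadjusted p on each side among genes of at least 10 CPM in every library of the higher group; Calca shows the widest gap and Mdfic one of the narrowest.

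Across 24 lists of genes by function, few members were called. Of 646 list genes tested, 0 were called higher and 3 lower (edgeR), namely Inpp4b, Flrt2 and Myo6, while 81 reached an unadjusted p under 0.05. Among all 15117 genes tested these counts were 20 higher, 9 lower and 1352 (29 called, 0.192%, and 8.94%). DESeq2 called 11 higher and 9 lower of 629, among the higher ones Crem, Atp2b4, Camk4, Hdac4 and Ets2. Over all genes DESeq2 called 253 of 13888 (1.82%). The groups were separate for 98 of the 646 (15.2%), against 12.1% of all genes and 18.1% of genes of at least 100 CPM. List medians ran from -0.46 to 0.31 on the log2 scale, 14 above 0 and 10 below. The median was -0.005 for all genes tested and 0.14 for the 1681 genes of at least 100 CPM.

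The Ras and MAP kinase cascade, which carries growth factor and antigen receptor signals, had 22 of 32 members with a positive log2 fold change, a median of 0.30 and no call by either tool (2 at an unadjusted p under 0.05). Its groups were separate for 8 members (25%), 5 higher and 3 lower, against 12.1% of all genes tested and 18.1% of genes of at least 100 CPM. Of those 1681 genes of at least 100 CPM, 1077 had a positive log2 fold change, and of all 15117 genes, 7470. Rasa2, a Ras GTPase-activating protein, had 123, 169.5 and 116 CPM without injury and 192, 246 and 273 CPM after it (adjusted p = 0.35). Map2k1, the kinase MEK1, had 40.8, 21.1 and 28.6 against 18.9, 213 and 18.2 CPM, so that its positive fold rested on injured library 2. In the cAMP list 21 of 31 members were positive, the median was 0.19, and Crem had the smallest p. Pde7b, a cAMP phosphodiesterase, had 311, 244 and 351 against 469.5, 472 and 535 CPM (adjusted p = 0.32). Calcium entry and calcineurin-NFAT genes were positive in 19 of 32 cases with a median of 0.12, and Itpr2, an intracellular calcium channel, went the other way with 682, 827 and 657 against 407, 595 and 489 CPM (adjusted p = 0.46).

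Of 22 nuclear receptors and 34 chromatin regulators tested, edgeR called 0 (6 and 3 at an unadjusted p under 0.05), and DESeq2 called the nuclear receptors Nr4a3 and Rora and the chromatin regulator Hdac4, all higher. Over all genes DESeq2 called 1.82%. The groups were separate for 7 nuclear receptors (31.8%), 5 higher and 2 lower, and 9 chromatin regulators (26.5%), 6 higher and 3 lower. The share was 12.1% for all genes tested and 18.1% for genes of at least 100 CPM. Among lymphoid transcription factors, Ets2 had 32.8, 41.2 and 53.5 against 74.1, 152 and 79.8 CPM (adjusted p = 0.27), and Bhlhe40 had 166, 245 and 341 against 175, 66.3 and 109.9 CPM (adjusted p = 0.34) with overlapping groups. Satb1, an organiser of chromatin loops, had 278, 364 and 309 against 406, 701 and 454 CPM (adjusted p = 0.38).

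Secreted growth factors and chemokines were mostly on the lower side, with 24 of 32 members negative, 7 positive and a median of -0.37. Of all 15117 genes tested, 7590 were negative, and of the 1681 genes of at least 100 CPM, 604. The sign thus varied with level, and whether the level of these members accounts for their signs was not tested. In edgeR 0 were called (7 at an unadjusted p under 0.05), whereas DESeq2 and the fit on the 6 libraries called Calca, on the higher side. Ltb, the lymphotoxin that organises lymphoid tissue, had 45.8, 45.9 and 37.9 CPM without injury and 21.2, 16.3 and 11.1 CPM after it (adjusted p = 0.46). Lif, a cytokine of the interleukin-6 family, had 15.9, 30.7 and 51.1 against 5.91, 1.83 and 17.7 CPM (adjusted p = 0.45), and the groups overlapped. Axon guidance receptors and ligands had the lowest median, -0.46, with 19 of 29 members negative. Flrt2, an adhesion protein of this list, fell from 168, 148 and 173 CPM to 29.7, 42.8 and 52.1 CPM (adjusted p = 0.0056). Sema4a, a semaphorin of immune cells, had 154, 126 and 155 against 95.4, 58.6 and 46.9 CPM (adjusted p = 0.28). Of 22 tetraspanins and other membrane organisers, 14 were negative with a median of -0.23.

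Motor proteins and housekeeping functions held few calls in edgeR. Myo6, a myosin that moves toward the minus end of actin filaments, fell from 224, 179 and 148 CPM to 63.7, 39.9 and 44.4 CPM (edgeR adjusted p = 0.018). It was the 1 edgeR call among 21 myosin genes tested. DESeq2 called 3 of 21 lower, Myo6, Myl12b and Myo5c, and 1 higher, Myo3b, against 1.82% of all genes. Over the 6 libraries Myo5c and Myo3b had means of only 1.83 and 9.74 CPM. Myl12b, a myosin light chain, had 144, 131 and 160.2 against 87.5, 58.0 and 74.8 CPM (edgeR adjusted p = 0.24; called by DESeq2). Lamp1, the lysosomal membrane protein that also marks degranulation, had 125, 114 and 131 against 80.8, 51.3 and 55.3 CPM (adjusted p = 0.34). None of the genes here that edgeR left uncalled can be said to have changed in that test. Gclc, of glutathione synthesis, had 144, 133 and 152 against 269, 226 and 254 CPM (adjusted p = 0.35). Fbxl5, the iron-sensing subunit of a ubiquitin ligase, had 125, 126 and 108 against 223, 214 and 181 CPM (adjusted p = 0.35), and Tfrc, the transferrin receptor, had 26.2, 19.5 and 21.2 against 32.3, 79.1 and 47.6 CPM (adjusted p = 0.48). Of 13 iron genes tested by DESeq2, 1 was called, Slc40a1, on the lower side. Tlr1, a receptor for bacterial lipopeptides, had 188, 189 and 147 against 87.7, 113 and 110.2 CPM (adjusted p = 0.41), whereas its adaptor Myd88 had 7.84, 9.61 and 1.14 against 8.12, 109.8 and 10.7 CPM, high in injured library 2 alone.

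**Figure D4:**
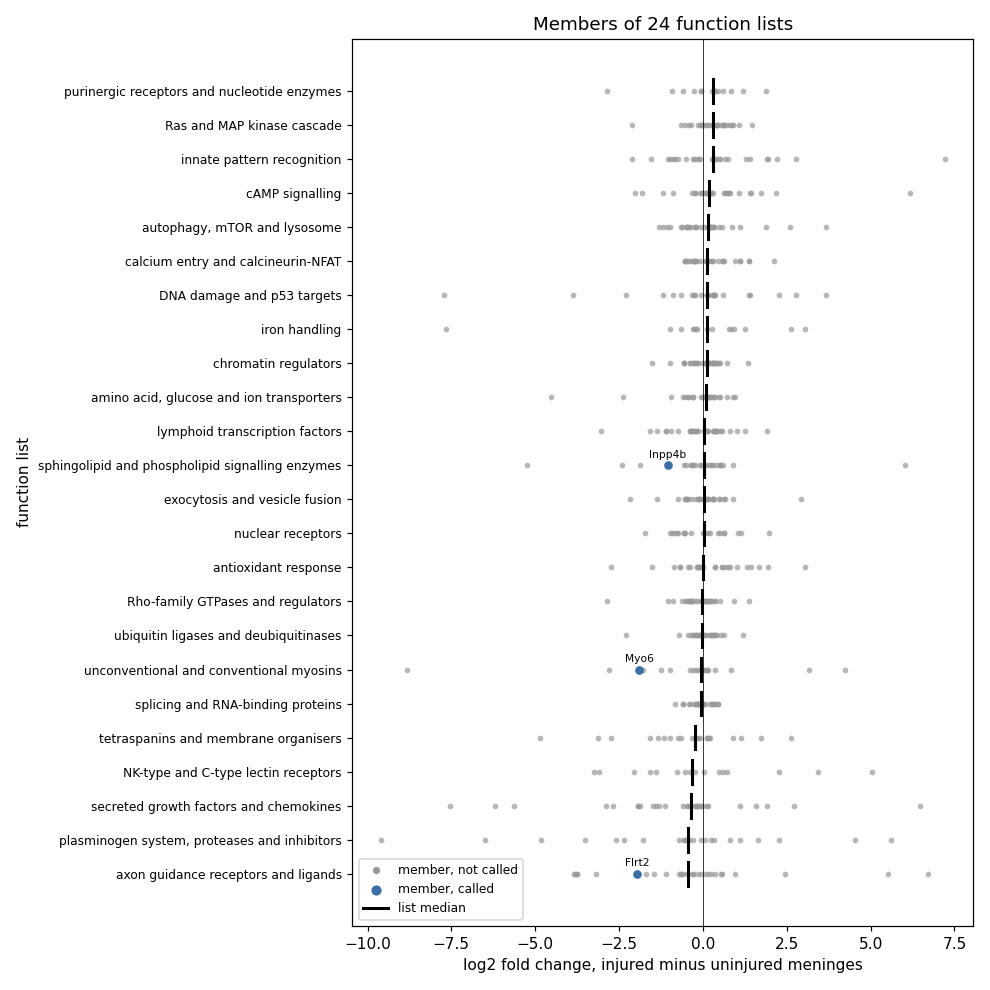
Log2 fold change (injured minus uninjured meninges) of each tested member of 24 function lists, with a black bar at the list median, ordered by median. Grey points did not pass the test and blue points are the 3 called members, Inpp4b, Myo6 and Flrt2; the medians lie between -0.46 and 0.31 while single members spread far more widely.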

How the data were processed

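The deposited values are raw counts of reads per gene made by the authors, whole numbers that were not normalized. The submitters' processing notes name FastQC, STAR, HTSeq and the build mm9 and state neither versions nor roles. Per the labels, PicoPure RNA was amplified (Ovation RNA-Seq System V2). The strand setting of the counting is not stated, so overlapping and antisense genes cannot be told apart. The table held 23466 genes, of which 90 had an identifier and no symbol. No 2 libraries agreed within sampling noise (lowest chi-square per degree of freedom 72.5).

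The test was edgeR 4.0.16 under R 4.3.3 (filterByExpr by group, trimmed mean of M values, robust quasi-likelihood F test, Benjamini-Hochberg over 15117 genes). All 9 libraries entered 1 fit, because 3 libraries per group leave few degrees of freedom, and genes under an adjusted p of 0.05 are called. The common biological coefficient of variation was 0.906. Standard errors are the size of the log2 fold change over the root of its F statistic, and CPM were scaled by the same size factors. The procedure was tested on simulated counts. Alternatives were the 6 meningeal libraries alone, DESeq2 1.42.0, other scalings and filters, a replicate block, and leaving out each library.

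The genes named were taken from all called genes, the 12 uncalled genes per direction with separate groups and the smallest p (at least 10 CPM in each library of the higher group, without ribosomal, predicted or mitochondrial genes), and up to 3 genes per list by p. To each list its most abundant member was added, and fewer are named than this allows. The comparison, the lists and the motifs were chosen with earlier results of these data known, and the gene families around called genes after the calls were seen, so no list was tested.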

Additional observations from a re-analysis of the deposited data

How the results depend on the processing

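The number of genes called depended on the analysis. Against 29 genes, the 6 meningeal libraries alone gave 12, DESeq2 253 (131 higher, 122 lower) and no filter on low counts 78 (52 higher, 26 lower). Leaving out 1 library gave 18 to 27, with the lowest values without injured library 2 (18) and uninjured library 2 (19, of which 10 were higher). Other size factors, library totals alone, mitochondrial genes left out, a stricter filter (10 CPM in 3 libraries) and a fit without robust estimation gave 27, 30, 29, 34 and 22. None of the 29 called genes and the 24 uncalled genes with separate groups reversed its direction in any of these alternatives. Groups without overlap leave little room for a reversal, so this outcome was close to fixed in advance. Of 203 other uncalled genes considered, 51 had the opposite sign in at least 1 alternative, among them Map2k1 (1.46, and -0.70 without injured library 2) and Lrp4 (6.36, and -3.96 without it). The cause of the differences was not tested. Replicate numbers shared by the groups did not pair the libraries: deviations from the group means correlated at 0.0626, -0.018 and 0.0185 for numbers 1, 2 and 3, and injured libraries 2 and 3 did not correlate best with their own number. The replicate block gave 43 calls (33 higher, 10 lower), 27 of them among the 29, without D630045J12Rik and Ighm. The medians of 6 function lists kept their sign in all 10 settings tried (cAMP, calcium, Ras and MAP kinase, secreted factors, axon guidance, tetraspanins), and the other 18 changed sign in at least 1.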

Other observations

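Some of the widest folds came from a single library. Of 13 uncalled genes with a log2 fold change above 5 and a mean of at least 10 CPM, chosen after their values were seen, 11 had their highest injured value in injured library 2. Me3, a mitochondrial malic enzyme, had 0, 0 and 0 CPM without injury and 0, 174 and 0.125 CPM after it. Lrp4, a receptor known from the neuromuscular junction, had 1.74, 0 and 0 against 0, 149 and 0.0627 CPM. Hey1, a target of Notch signalling, had 0.327, 0 and 0 against 6.51, 147 and 1.504 CPM (edgeR adjusted p = 0.19). Havcr2, the gene of the inhibitory receptor TIM-3, was less uneven, with 0.816, 0 and 0 against 3.46, 40.1 and 16.4 CPM (edgeR adjusted p = 0.27).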
